A study of Mus musculus with 5 samples.

Results

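The interleukin-1 (IL-1) family genes described here are 10 mouse genes for IL-1 type cytokines, their natural antagonist and their receptor chains, measured by 3′ RNA sequencing (QuantSeq) in bone marrow KL cells. They are Il1a, Il1b, Il1f9 (also named Il36g), Il18, Il1rn, Il1r1, Il1rl1, Il1r2, Il1rap and Il18rap. They were taken by gene symbol from a table of 52550 genes, and all 10 were found. The genes were chosen by their symbols, with the levels and fold changes between these same genotypes already known. The set's fold changes are therefore given as a description, without p-values, and its counts of changed genes support nothing by themselves.

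KL cells are Lin-cKit+Sca1- cells, the sorted fraction of bone marrow that holds the committed myeloid progenitors. The BcorΔE9-10 group (n = 3) came from male mice of genotype scl-Cre-ERT + and Bcorfl/y, in which Cre removes exons 9 to 10 of the X-linked gene Bcor, a subunit of a Polycomb repressive complex. The BcorWT group (n = 2) came from scl-Cre-ERT + and Bcorwt/y males, so the control mice carried the same Cre transgene. Both groups had received tamoxifen by intraperitoneal injection at 1 mg per day on 5 days, at an age of 3 to 6 months, and cells were sorted 20 weeks later. The transgene drives the tamoxifen-dependent Cre in haematopoietic stem cells, so that KL cells carry the deletion only where they descend from a recombined stem cell. The labels number the libraries within a genotype but do not say that each came from a different animal, so the spread between them may in part be technical.

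Cytokines of the IL-1 family act through paired receptor chains that share an intracellular TIR domain. IL-1α and IL-1β bind IL1R1, which then recruits the accessory chain IL1RAP, the adaptor MyD88 and the IRAK kinases, and ends in activation of NF-κB and MAP kinases. The pathway is braked at the surface, where the antagonist IL1RN occupies IL1R1 without signalling and IL1R2 captures IL-1 but lacks a signalling domain. In bone marrow, IL-1 is known as an inflammatory signal that pushes stem and progenitor cells towards myeloid output.

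The genes lie mainly in clusters (mouse genome build mm10, which is GRCm38). Il1r2 (chr1:40074079-40125231), Il1r1 (chr1:40225080-40317257), Il1rl1 (chr1:40429570-40465415) and Il18rap (chr1:40515362-40551705) are all on the + strand of chromosome 1, in a stretch of 478 kb that holds 6 protein-coding genes, each of them a receptor gene of the family. Il1f9 (chr2:24186476-24193568) and Il1rn (chr2:24336853-24351494) flank 3 other family genes on the + strand of chromosome 2, over 165 kb. Il1a (chr2:129299610-129309972) and Il1b (chr2:129364570-129371139) lie on the - strand of the same chromosome. Il1rap (chr16:26581704-26730117) and Il18 (chr9:50554827-50581840) stand alone, both on the + strand.

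The promoters shown here are those of the 4 genes that were lower in BcorΔE9-10 cells in the fit across all genes, and that of Il1rap, the tested gene with the opposite sign. Each is RefSeq sequence of GRCm38.p6, read 5′ to 3′ on the + strand, from 250 bases before an annotated start to 50 bases after it. Capitals mark matches, on either strand, to GGG and CC with 5 bases of any kind between them (NF-κB), or to the letters TGANTCA (AP-1), AGGAAGT (PU.1), TTNNGNAA (C/EBP) or TTCNTNGAA (BCL6, the factor after which Bcor is named). Of several RefSeq starts of Il1rn, a distal one and an internal one are shown.
Il1f9, chr2:24186226-24186525: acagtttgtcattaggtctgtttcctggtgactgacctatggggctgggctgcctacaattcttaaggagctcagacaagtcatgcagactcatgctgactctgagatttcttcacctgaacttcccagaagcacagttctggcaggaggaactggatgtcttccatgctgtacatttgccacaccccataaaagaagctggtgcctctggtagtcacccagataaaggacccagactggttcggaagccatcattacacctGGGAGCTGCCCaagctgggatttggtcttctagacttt
Il1rn distal start, chr2:24336610-24336909: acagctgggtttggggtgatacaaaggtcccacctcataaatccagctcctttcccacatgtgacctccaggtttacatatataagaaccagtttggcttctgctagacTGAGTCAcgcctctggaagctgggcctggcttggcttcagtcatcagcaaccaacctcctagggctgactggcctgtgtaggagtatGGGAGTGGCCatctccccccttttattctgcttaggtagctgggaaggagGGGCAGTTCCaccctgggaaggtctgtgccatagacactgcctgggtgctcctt
Il1rn internal start, chr2:24345041-24345340: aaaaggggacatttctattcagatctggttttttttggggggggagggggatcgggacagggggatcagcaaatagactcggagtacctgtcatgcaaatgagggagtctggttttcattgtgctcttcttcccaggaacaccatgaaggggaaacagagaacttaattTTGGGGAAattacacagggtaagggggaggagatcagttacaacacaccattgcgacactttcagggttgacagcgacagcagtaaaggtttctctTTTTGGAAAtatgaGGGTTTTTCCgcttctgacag
Il1r2, chr1:40085843-40086142: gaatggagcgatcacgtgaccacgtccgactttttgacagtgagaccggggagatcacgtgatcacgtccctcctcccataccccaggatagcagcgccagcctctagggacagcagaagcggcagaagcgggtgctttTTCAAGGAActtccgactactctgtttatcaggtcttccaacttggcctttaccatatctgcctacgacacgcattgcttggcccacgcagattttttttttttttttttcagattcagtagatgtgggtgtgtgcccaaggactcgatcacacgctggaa
Il18rap, chr1:40515112-40515411: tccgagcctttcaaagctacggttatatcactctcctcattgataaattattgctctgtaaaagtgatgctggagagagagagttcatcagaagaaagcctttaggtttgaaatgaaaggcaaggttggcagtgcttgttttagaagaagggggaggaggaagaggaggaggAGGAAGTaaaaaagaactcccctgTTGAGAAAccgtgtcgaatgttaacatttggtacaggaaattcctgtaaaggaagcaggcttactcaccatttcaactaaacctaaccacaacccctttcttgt
Il1rap, chr16:26581455-26581754: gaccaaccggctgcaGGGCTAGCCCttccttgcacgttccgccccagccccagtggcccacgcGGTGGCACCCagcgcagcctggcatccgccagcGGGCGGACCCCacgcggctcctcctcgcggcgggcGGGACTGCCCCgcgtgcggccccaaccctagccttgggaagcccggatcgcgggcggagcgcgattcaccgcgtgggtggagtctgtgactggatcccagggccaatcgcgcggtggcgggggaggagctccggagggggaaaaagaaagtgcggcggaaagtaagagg

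The promoters differed in which letters they held. The Il1f9 window had NF-κB matches on both strands that overlap, at 12 and 13 bases past the start. The distal Il1rn window had an AP-1 match 141 bases before the start and NF-κB matches 54 and 4 bases before it, while the internal window had C/EBP matches at 81 bases before and, overlapping each other, at 15 and 16 bases past the start, and an NF-κB match at 29 bases past it. Il1r2 held only a BCL6 match, on the other strand, 111 bases before the start. The Il18rap window had a PU.1 match 78 bases and a C/EBP match 54 bases before the start, and the Il1rap window had 6 NF-κB matches, among them overlapping pairs on opposite strands. The NF-κB letters are loose: they occurred in 50.8% of all 32851 RefSeq promoter windows of the same length and in 42.9% of the 14 windows of the 10 genes. The C/EBP letters were in 40.7% of all windows and in 64.3% of these 14, AP-1 in 7.8% and 14.3%, PU.1 in 9.4% and 7.1%, and BCL6 in 3.8% and 7.1%. Windows of 1 gene can share bases, and a match describes letters and not a bound site.

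Libraries held between 5998924 and 8303999 counts. Of all genes, 11766 had enough counts to be tested with limma on voom values. At a Benjamini-Hochberg adjusted p under 0.05, 6.02% of them were called higher and 4.09% lower in BcorΔE9-10 cells, 10.1% in either direction. With libraries scaled by their total counts alone, log2 fold changes moved up by a median of 0.15 and the split changed from 708 higher and 481 lower to 1210 higher and 197 lower. Of the genes of the sort gate, Ly6a, which encodes the excluded marker Sca-1, had 3 to 8 counts per library. Itgam, which encodes the lineage marker CD11b that the gate also excludes, was present in every library. It stood at 120, 122 and 132 CPM in BcorΔE9-10 cells and 96.4 and 96.5 CPM in BcorWT cells. Ly6g, of the excluded marker Gr-1, was at 219 CPM against 445 CPM, while the excluded Cd5 had 0 to 4 counts per library. The gate reads surface protein, so these transcript levels do not check it. The progenitor granule gene Mpo stood at 4937 and 5238 CPM (counts in units of 1e+06 counts of a library) in BcorΔE9-10 and BcorWT cells. Kit, the gene of the sorted surface receptor, was at 51.0 CPM against 18.9 CPM and was called higher in BcorΔE9-10 cells (log2 fold change 1.43, limma adjusted p = 9.82e-05). Bcor itself had 196, 168 and 185 counts against 83 and 109, but a 3′ count does not read the deleted exons and so checks no label.

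In KL cells the decoy and antagonist side of the family and the IL-18 receptor chain were abundant, and the classical agonists and their signalling receptor were at low or undetected levels. The genes with the highest levels in BcorWT cells were, in order, Il18rap, Il1rn, Il1r2 and Il1f9. The first and second of these did not differ beyond the spread of the controls. Levels are in CPM, scaled by TMM factors, and are not divided by gene length because the method reads 1 end per transcript. Recovery of the ends can still differ between genes, so an order of levels is approximate. In BcorΔE9-10 cells the levels of these genes summed to 108, 93.3 and 104 CPM, against 221 and 172 CPM in BcorWT cells, and the groups did not overlap.

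**Figure D1:**
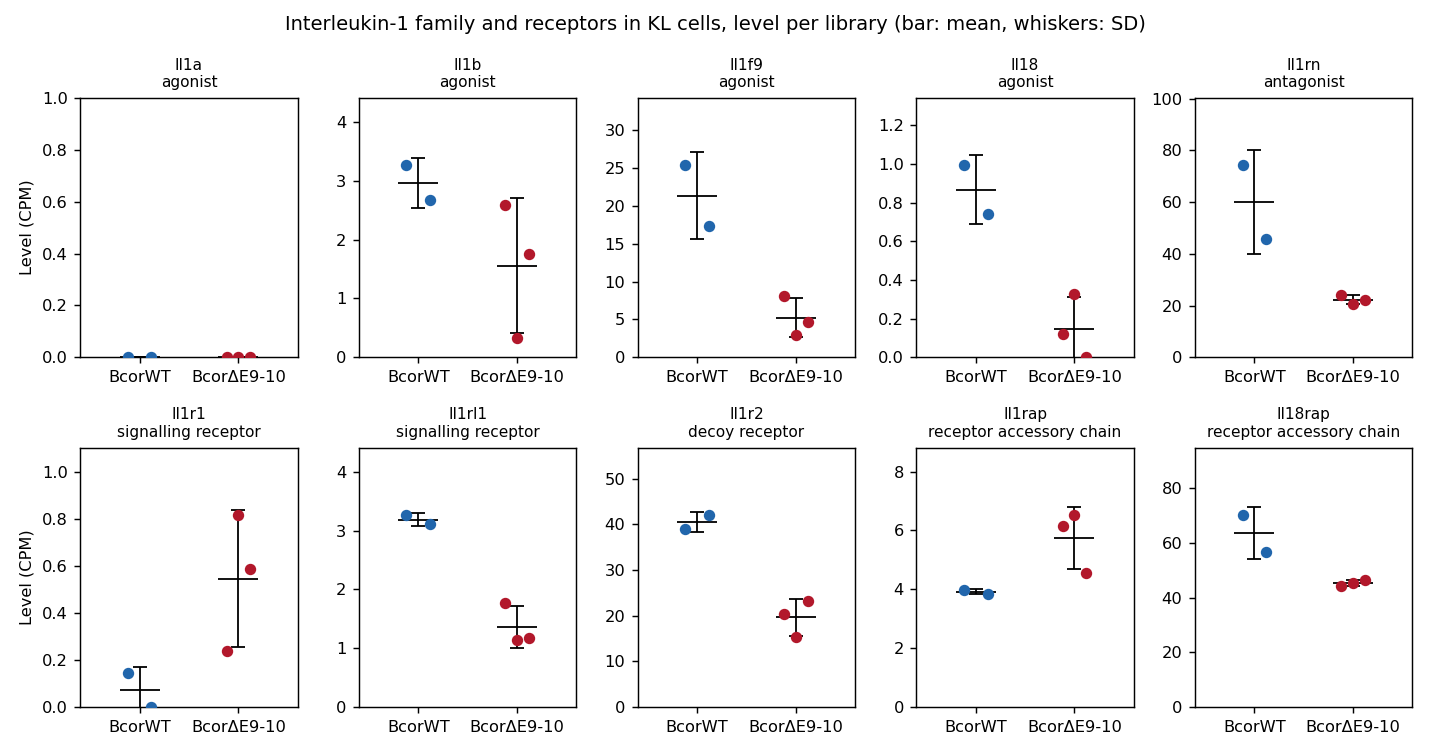
Level of each of the 10 IL-1 family genes (vertical axis, CPM, linear, a separate scale in each panel) in the 2 BcorWT and 3 BcorΔE9-10 libraries. Points are libraries, bars are means and whiskers are the SD, cut at 0. Il1f9, Il1rn, Il1r2 and Il18rap have all 3 BcorΔE9-10 points below both BcorWT points, Il1rap has them above, and Il1a is at 0 throughout.

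Among the agonists, Il1a (IL-1α) had no count in any library, which at 3 counts over all libraries allows up to 0.0812 CPM. Il1b, which encodes IL-1β, had 2.60, 0.326 and 1.75 CPM in BcorΔE9-10 libraries 1, 2 and 3 and 3.27 and 2.67 CPM in the BcorWT libraries. The groups just failed to overlap, with BcorΔE9-10 library 1 next to BcorWT library 2, and these levels rest on 2 to 23 counts. The mean was 1.56 ± 1.15 CPM (SD, n = 3) against 2.97 ± 0.424 CPM (n = 2), and the log2 fold change of -1.13 (SE 0.633) was not called. Leaving out BcorΔE9-10 library 2 moved it to -0.47.

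Il1f9 encodes IL-36γ, an agonist of the IL-36 receptor that is made by epithelial and myeloid cells. It stood at 8.04, 2.94 and 4.67 CPM in the BcorΔE9-10 libraries and at 25.4 and 17.3 CPM in the BcorWT libraries. Every BcorΔE9-10 library was below both controls, and within BcorΔE9-10 cells library 2 was again the lowest. The means were 5.22 ± 2.59 CPM (SD, n = 3) and 21.4 ± 5.72 CPM (n = 2), 4.10-fold lower in BcorΔE9-10 cells, and the log2 fold change of -2.05 (SE 0.324) was called in 16 of 16 fits. This was the farthest from 0 of the 7 tested genes. Its value carries a doubt about reads, since 77.49% of the 30-base words in its last 300 bases also occur in 49 other genes, and how reads that align to several places were counted is not given in the sources used here.

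Il18 encodes IL-18, an agonist that is stored as an inactive precursor and cut by caspase-1. It had 1, 2 and 0 counts in BcorΔE9-10 cells and 7 and 5 in BcorWT cells, too few to be tested. Summed over libraries, 3 counts against 12 gave a ratio of 0.149 (exact 95% interval 0.027 to 0.552, which covers counting error only).

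The antagonist Il1rn was among the most abundant genes of the family. It had 203, 127 and 189 counts in BcorΔE9-10 cells and 523 and 309 counts in BcorWT cells, or 24.0, 20.7 and 22.1 CPM against 74.3 and 45.8 CPM. The BcorΔE9-10 libraries lay close together, the BcorWT libraries far apart, and the groups did not overlap. The mean was 22.3 ± 1.64 CPM (SD, n = 3) against 60.0 ± 20.1 CPM (n = 2), a log2 fold change of -1.39 (SE 0.198), called in 16 of 16 fits. The size depended on the control used, at -1.04 without BcorWT library 1 and -1.73 without BcorWT library 2. In those fits the lone control library is assumed to vary like the other group.

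The ratio of antagonist to agonist counts varied between libraries, and whether it differed between genotypes was not tested. Il1rn counts were 9.23, 63.5 and 12.6 times the Il1b counts in the BcorΔE9-10 libraries and 22.7 and 17.2 times in the BcorWT libraries. The ratio of BcorΔE9-10 library 2 rests on 2 counts of Il1b. Against Il1f9, the Il1rn counts were 2.99, 7.06 and 4.72 times as many in BcorΔE9-10 cells and 2.92 and 2.64 times in BcorWT cells. The second ratio was higher in every BcorΔE9-10 library than in either control, as Il1f9 had the larger fold change. In BcorΔE9-10 library 1 the gap was narrow, at 2.99 against 2.92 in BcorWT library 1, on 68 and 179 counts of Il1f9. The doubt about Il1f9 reads applies to this ratio as well.

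Of the signalling receptors, Il1r1, the receptor through which IL-1α and IL-1β act, had 2, 5 and 5 counts in BcorΔE9-10 cells and 1 and 0 in BcorWT cells. It was too low to be tested, and 12 summed counts against 1 gave a ratio of 7.15 (exact 95% interval 1.06 to 306, counting error only). It is 1 of 2 genes among the 10 with all BcorΔE9-10 libraries above both controls. Il1rl1 encodes ST2, the receptor of IL-33 and a surface protein of mast cells, basophils and group 2 lymphoid cells. It was measured at 1.77, 1.14 and 1.17 CPM in BcorΔE9-10 cells and 3.27 and 3.11 CPM in BcorWT cells, on 7 to 23 counts. The groups did not overlap, but the log2 fold change of -1.20 (SE 0.505) was not called in any of 15 fits.

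The decoy receptor Il1r2, a gene of maturing neutrophils, had 173, 94 and 199 counts in BcorΔE9-10 cells and 274 and 284 in BcorWT cells. In CPM these were 20.4, 15.3 and 23.3 CPM against 38.9 and 42.1 CPM. Both controls were above every BcorΔE9-10 library, and the spread was smaller in the controls. The means of 19.7 ± 4.01 CPM (SD, n = 3) and 40.5 ± 2.24 CPM (n = 2) differed 2.06-fold, and the log2 fold change of -1.03 (SE 0.183) was called in 16 of 16 fits. The decoy outnumbered the signalling receptor in counts in every library in which Il1r1 was seen, by 86.5, 18.8 and 39.8 times in BcorΔE9-10 cells and 274 times in BcorWT library 1.

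The accessory chains differed in the sign of their fold change. Il1rap, the partner chain of IL1R1, ST2 and the IL-36 receptor, was at 6.15, 6.53 and 4.56 CPM in BcorΔE9-10 cells and 3.98 and 3.85 CPM in BcorWT cells, without overlap. Its log2 fold change of 0.51 (SE 0.363) was not called in any of 16 fits and was 0.27 after correction for the GC content of transcript ends, which for Il1rap was the lowest of the tested genes (30.7% of its last 300 bases). Il18rap, the accessory chain of the IL-18 receptor, was at 44.2, 45.2 and 46.3 CPM against 70.3 and 56.8 CPM. The BcorΔE9-10 libraries were nearly identical and below both controls, with means of 45.2 ± 1.04 CPM (SD, n = 3) and 63.5 ± 9.58 CPM (n = 2). The log2 fold change of -0.48 (SE 0.144) was called with all libraries but in only 8 of 16 fits. The call was lost with total counts alone, with no filter on low counts, under both corrections for GC content, and without BcorΔE9-10 library 1, 2 or 3 or BcorWT library 1.

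In all, 4 of the 10 genes were called lower (Il1f9, Il1rn, Il1r2 and Il18rap), 0 were called higher, 3 were tested and not called, and 3 were too low to be tested, where 4.09% of all tested genes were called lower and 6.02% higher. At an unadjusted limma p under 0.05 the numbers were 5 lower and 0 higher, and edgeR and DESeq2 each called 4 lower and 0 higher. Among the 7 tested genes, the groups did not overlap in 6 with the BcorΔE9-10 libraries lower and in 1 with them higher, where 20.3% of all tested genes were lower and 22.6% higher without overlap, 42.8% in either direction. The median log2 fold change of the 7 tested genes was -1.13, beside 0.00 over all tested genes, of which 49.6% had a log2 fold change below 0. The untested Il18 was lower and Il1r1 higher without overlap. These figures restate how the genes were picked. Within BcorΔE9-10 cells, library 2 was the lowest for 5 genes, Il1b, Il1f9, Il1rn, Il1rl1 and Il1r2, and BcorWT library 1 was above library 2 for 8 genes. The shares over all tested genes were not computed for these orders of libraries, so they describe the members only.

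**Figure D2:**
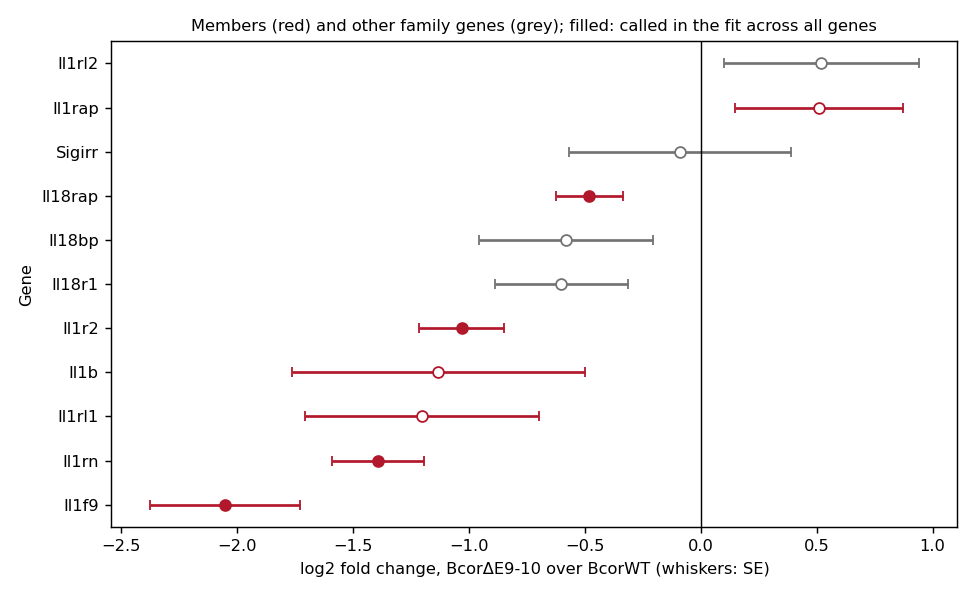
Log2 fold change of BcorΔE9-10 over BcorWT (horizontal axis, whiskers are the SE of the limma fit) for the 7 tested IL-1 family genes in red and the 4 tested family genes outside the set in grey, with filled points for called genes. Il1f9 is farthest from 0 at -2.05, and Il1rap and Il1rl2 are the genes above 0 whose groups did not overlap.

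The fold changes were also computed under other scalings, filters, tests and corrections and without each library. Il1f9 ranged from -2.43 to -1.77 when single libraries were left out, Il1rn from -1.73 to -1.04 and Il1r2 from -1.18 to -0.89. No tested member changed sign in any fit, and Il18rap ranged from -0.63 to -0.33.

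**Figure D3:**
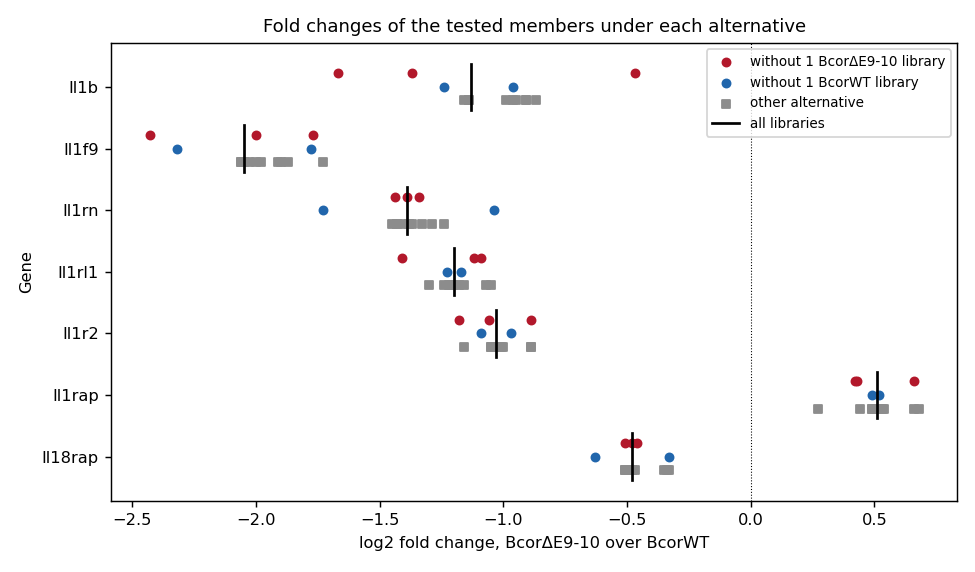
Log2 fold change of BcorΔE9-10 over BcorWT (horizontal axis) for each tested IL-1 family gene (vertical axis) under each way of fitting the data. Bars are the fit with all libraries, red points fits without 1 BcorΔE9-10 library, blue points fits without 1 BcorWT library and grey squares other alternatives. Every point of Il1rap is above 0 and every point of the other 6 genes below it, and Il1b spreads most, from -1.67 to -0.47.

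Of 11 other genes of the family, none was called by limma, edgeR or DESeq2, and none had an unadjusted p under 0.05. The cytokine genes Il33, Il1f6 and Il1f8, the antagonist-type genes Il1f5 and Il1f10 and the receptor-like Il1rapl1 and Il1rapl2 had no count in any library. Il18r1, the ligand-binding chain of the IL-18 receptor, was at 5.54 ± 0.769 CPM against 8.48 ± 0.258 CPM (log2 fold change -0.60, limma adjusted p = 0.203), far below its partner Il18rap in both genotypes. Il18bp, a soluble trap for IL-18, was at 3.87 ± 1.25 CPM against 5.92 ± 1.67 CPM (log2 fold change -0.58, limma adjusted p = 0.353). Il1rl2, the receptor for IL-36γ, was at 3.94 ± 0.414 CPM against 2.68 ± 0.0219 CPM (log2 fold change 0.52, limma adjusted p = 0.473). Sigirr, an inhibitory receptor, was at 3.19 ± 0.931 CPM against 3.52 ± 2.05 CPM (log2 fold change -0.09, limma adjusted p = 0.929), and its sign depended on the fit. All 4 were detected in both genotypes. Il18r1 was lower and Il1rl2 higher in every BcorΔE9-10 library than in either control, while the groups overlapped for Il18bp and Sigirr.

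Downstream of the receptors, genes were taken from lists for signalling, for processing and release of IL-1, and for the response to it. Of 77 genes, 66 were tested, 5 were called higher and 2 lower, and the median log2 fold change was 0.00, as over all tested genes. Over all genes 6.02% were called higher and 4.09% lower, so the lists as a whole held calls at about the rate over all tested genes, and the genes named here are described one by one. Of 30 tested signalling genes, 4 were called higher and 1 lower, and the list was not compared with that background by a test. The kinase-like Irak3 (IRAK-M), which restrains IRAK signalling in myeloid cells, had 49.1, 50.4 and 56.4 CPM in BcorΔE9-10 cells and 20.4 and 23.1 CPM in BcorWT cells. It was more than doubled in every BcorΔE9-10 library relative to either control, and its log2 fold change was 1.26 (SE 0.171, limma adjusted p = 0.000249), called in every fit. Irak3 overlaps Tmbim4 on the other strand, and whether reads were counted by strand is not given in the sources used here.

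The other called signalling genes act further down. Nfkb1, which encodes the p50 precursor of NF-κB, was at 36.1 ± 4.39 CPM against 17.4 ± 1.32 CPM (log2 fold change 1.03, SE 0.191, limma adjusted p = 0.00266), and under correction for GC content it was 0.57 (limma adjusted p = 0.0698). Chuk, the kinase IKKα, was at 21.3 ± 2.59 CPM against 10.1 ± 3.89 CPM (log2 fold change 1.11, SE 0.258, limma adjusted p = 0.0124). Tab2, an adaptor of the kinase TAK1, was at 65.4 ± 5.90 CPM against 41.6 ± 10.3 CPM (log2 fold change 0.68, SE 0.165, limma adjusted p = 0.0157). Its call was lost without BcorΔE9-10 library 3 (0.63, limma adjusted p = 0.0612) and without BcorWT library 1 (0.42, limma adjusted p = 0.212), and that of Chuk without BcorWT library 1 (0.70, limma adjusted p = 0.18). Rela, the p65 subunit of NF-κB, was the 1 signalling gene called lower, at 84.1 ± 5.03 CPM against 117 ± 8.94 CPM (log2 fold change -0.47, SE 0.123, limma adjusted p = 0.0236), and lost its call in 7 alternative fits. In these, its log2 fold change shrank to -0.26 under GC correction and to -0.32 with total counts alone. Without BcorΔE9-10 library 1, 2 or 3 it stayed at -0.50, -0.42 and -0.49. The adaptor Myd88 (log2 fold change -0.33, limma adjusted p = 0.231) and the ubiquitin ligase Traf6 (0.79, limma adjusted p = 0.0789) were not called in the main fit. Among alternatives that kept all libraries, Traf6 was called higher with total counts alone. Map2k7 was called higher under both corrections for GC content, and Map2k3 under the correction with the replicate block. Without BcorWT library 1 the higher calls over all 77 genes fell from 5 to 2, Irak3 and Nfkb1.

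Genes that process IL-1 type cytokines showed no call among 19 tested by limma with all libraries, and at an unadjusted p under 0.05 there were 1 higher and 3 lower. Calls appeared in both directions under other settings. Ctsc, a protease that activates granule proteases (log2 fold change -0.83, limma adjusted p = 0.0523), was called lower in 10 of 15 alternatives, edgeR and DESeq2 among them. Ctsg, the granule protease cathepsin G (log2 fold change 0.33, limma adjusted p = 0.0895), was called higher in 6 of 15. Prtn3 without BcorWT library 1 and Capn1 without BcorΔE9-10 library 1 were called lower, each in 1 alternative. Casp1, the caspase that cuts the IL-1β and IL-18 precursors, differed by -0.14 on the log2 scale (limma adjusted p = 0.75). The response genes held the largest change of the pathway lists. Tnfaip3, which encodes the NF-κB feedback inhibitor A20, had 64, 55 and 58 counts in BcorΔE9-10 cells and 9 and 14 in BcorWT cells. Its level of 7.77 ± 1.11 CPM against 1.68 ± 0.563 CPM gave a log2 fold change of 2.18, with SE 0.497 and a limma adjusted p of 0.0107, and without BcorWT library 1 it was 1.83 (limma adjusted p = 0.107). Lcn2, a neutrophil granule protein inducible by IL-1, was called lower at 1684 ± 205 CPM against 2599 ± 215 CPM (log2 fold change -0.63, SE 0.101, limma adjusted p = 0.00109). The other 15 tested response genes were not called by limma in the main fit, and Il6 had 0 to 3 counts per library. Among alternatives that kept all libraries, Cxcl2 was called higher with the replicate number as a block.

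**Figure D4:**
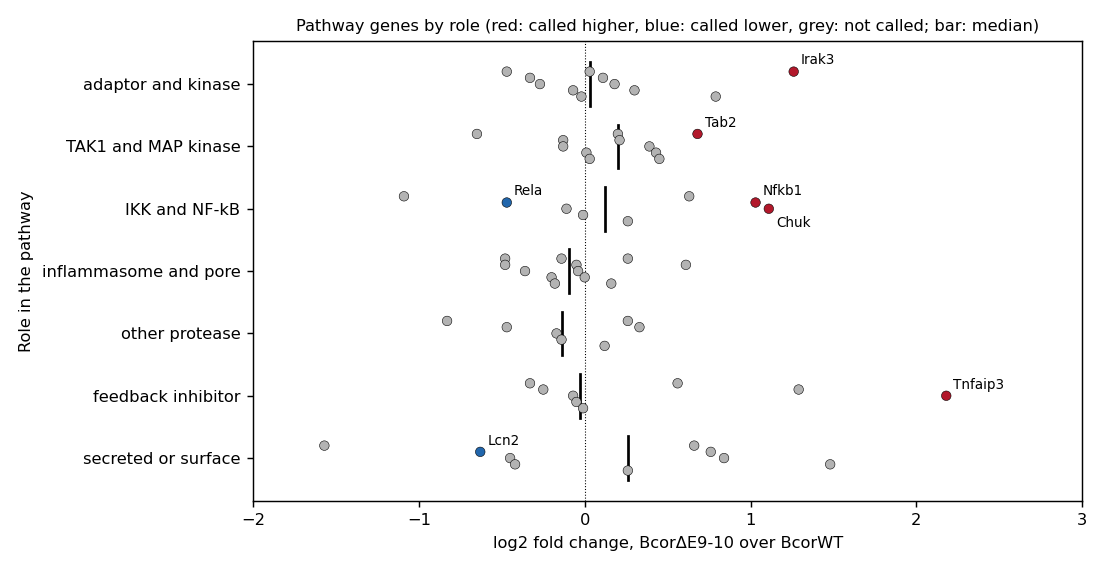
Log2 fold change of BcorΔE9-10 over BcorWT (horizontal axis) for the 66 tested genes of IL-1 signalling, processing and response, by role (vertical axis), with genes called higher in red, called lower in blue, the others in grey and a bar at each median. The medians lie between -0.14 and 0.26, and Tnfaip3 (2.18) and Irak3 (1.26) are the called genes farthest to the right.

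Marker lists of several cell types differed between the genotypes in the same libraries, some lower and some higher in BcorΔE9-10 cells. The summed level of 9 eosinophil markers was 289 to 452 CPM in BcorΔE9-10 cells and 831 to 985 CPM in BcorWT cells, and 6 of 7 tested were called lower. Most of that sum was Prg2, at 310 CPM against 754 CPM, and the seventh marker, Siglecf, was higher without overlap at 12.8 CPM against 7.66 CPM (log2 fold change 0.77, limma adjusted p = 0.0831). Basophil and mast cell markers, 12 genes, summed to 327 to 435 CPM against 591 to 766 CPM, with 4 of 6 tested called lower, and the mast cell proteases Tpsb2, Tpsab1 and Mcpt4 were at 0. Both sums were lowest in BcorΔE9-10 library 2 and highest in BcorWT library 1, the libraries at which Il1f9 was lowest and highest. The sum of T, NK and innate lymphoid markers had its lowest and highest values in the same libraries. Maturing neutrophil markers summed to 150263 to 174173 CPM against 217133 to 229844 CPM, and 8 of 12 were called lower, Lcn2 among them. S100a8 alone made up 74648 CPM against 113560 CPM of it, and Camp was not called, at 24926 CPM against 21132 CPM. Monocyte and macrophage markers summed to 1089 to 1204 CPM against 1454 to 1456 CPM. Most of that sum was Ly6c2, at 964 CPM against 1238 CPM, which was also the 1 gene of 8 tested that was called lower. The log2 fold change was below 0 for all 8. T, NK and innate lymphoid markers summed to 137 to 176 CPM against 190 to 195 CPM, but nearly all of that sum was Nkg7, at 147 CPM against 183 CPM (log2 fold change -0.32). Of the 6 tested, 4 had a log2 fold change above 0, with a median of 0.70. Limma, edgeR and DESeq2 called 0 of them, and at an unadjusted limma p under 0.05 there were 2 higher and 1 lower. Erythroid markers went the other way, with the largest ratio of the marker lists, 3.36. Their sum was 57.0 to 243 CPM in BcorΔE9-10 cells and 21.6 to 62.5 CPM in BcorWT cells, so the groups overlapped, and 1 of 7 tested was called higher by limma and 4 by edgeR. The gene called by limma was Car1, a red cell carbonic anhydrase (log2 fold change 2.46, limma adjusted p = 0.0443). Of the 7 tested, 6 had a log2 fold change above 0. Gata1 went down with overlap, at 1.51 CPM against 2.47 CPM (log2 fold change -1.09, limma adjusted p = 0.3). Megakaryocyte markers summed to 45.1 to 72.1 CPM against 27.3 to 47.1 CPM, a log2 ratio of 0.58 with overlap, and B cell markers to 42.3 to 59.3 CPM against 39.1 to 59.9 CPM. Limma called 0 genes of either list, and 1 of each was higher at an unadjusted p under 0.05. The 10 myeloid progenitor markers summed to 7420 to 8708 CPM against 7883 to 8704 CPM, a sum carried largely by Mpo. Among them 2 were called higher, Kit and the progenitor transcription factor Myb (log2 fold change 0.41, limma adjusted p = 0.0201), and 0 lower. In bulk libraries, fewer cells of a type and less RNA per cell cannot be told apart, and the part of these cell types in the IL-1 family values was not tested.

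**Figure D5:**
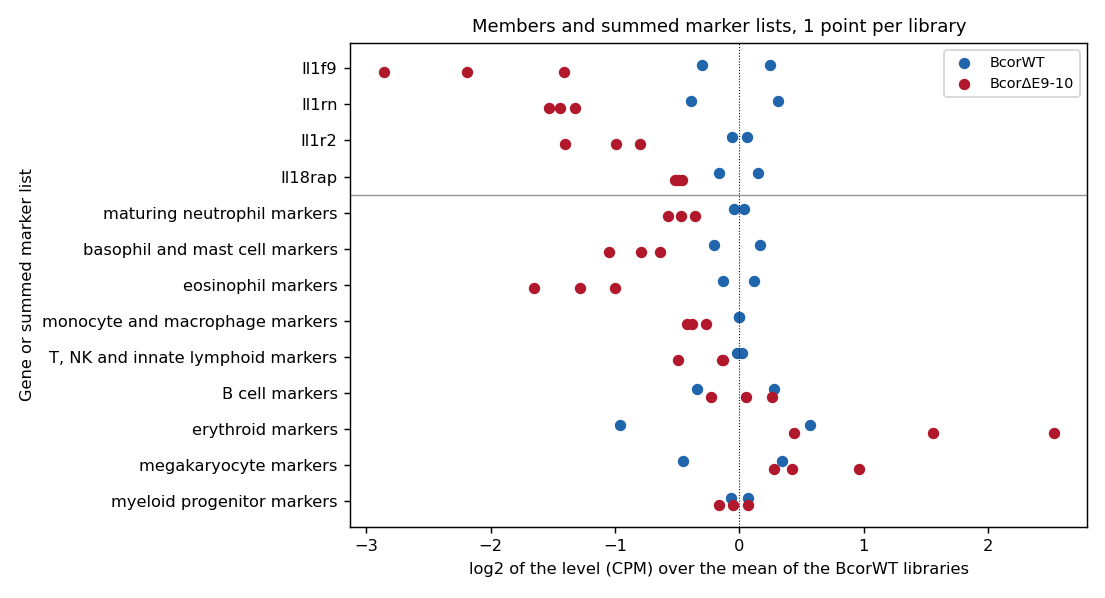
Log2 of the level in each library over the BcorWT mean (horizontal axis) for Il1f9, Il1rn, Il1r2 and Il18rap and for the summed cell type markers (rows), with 1 point per library, BcorWT in blue and BcorΔE9-10 in red. The eosinophil sum (log2 ratio of means -1.29) and the basophil and mast cell sum (-0.82) are lower in all 3 BcorΔE9-10 libraries, the erythroid sum (1.75) is higher but overlaps, and the myeloid progenitor sum (-0.04) is not separated.

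The genes with the most similar profiles differed between the 4 abundant members. Likeness was the Euclidean distance between log2 CPM profiles over the 5 libraries, each centred on its mean, among 6812 genes whose mean log2 CPM was 3 or more. Predicted genes, pseudogenes, Riken clones and genes without a symbol were left out of these. The distance reflects genotype and depth as well as any other source and is a description only. Nearest to Il1rn were Prss34 (distance 0.268), Ear2 (0.325) and Mcpt8 (0.345), all of them on the basophil or eosinophil marker lists, where the median gene was at 1.61. Nearest to Il1f9 were Prg2 (1.03), Inhba (1.17) and Prg3 (1.17), against a median of 2.54. Il1r2 was nearest to Lrg1 (0.211), Iqsec1 (0.217) and Creld2 (0.239), against a median of 1.25, and Il18rap to Amz2 (0.0833), Sh3glb2 (0.0842) and Picalm (0.0862), against 0.657. Among the members themselves, Il1rn was the fifth nearest gene to Il1f9 at 1.17, while Il1r2 was only at rank 50 for Il1rn at 0.767.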

How the data were processed

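KL cells were profiled with the QuantSeq 3′ kit in 3 BcorΔE9-10 and 2 BcorWT libraries, grouped by sample title. The authors filtered reads on quality, trimmed them at both ends (with cutadapt at the 5′ end), aligned them to mm10 with HISAT2 and counted them per gene with featureCounts (Subread 1.5.0-p3), and the deposited values are raw counts that were not normalised. Counting options for strand and multiple alignments are not given in the sources used here. This bears on members that other annotated genes overlap. These were Il1r2 (Gm37347) and Il1r1 (Gm38070) on the same strand, and Il1r2, Il1a, Il1b, Il18 and Il1rap on the other strand. Total counts were 5998924 to 8303999, and no pair of libraries of 1 genotype agreed within counting noise (chi-square of 5.69 to 10.79 per gene). Of 52550 genes, 52403 were given a symbol through GENCODE M21. Genes were kept with filterByExpr of edgeR 4.0.16 (minimum count 10, total 15), scaled by TMM, and tested over all 11766 genes with limma 3.58.1 on voom values in R 4.3.3, two-sided, with Benjamini-Hochberg adjustment. CPM is counts over the TMM-scaled total, as mean ± SD. Alternatives covered edgeR's quasi-likelihood test, DESeq2 1.42.0, scaling, filters, sample quality weights, a replicate block, GC content and leaving out each library. Exact intervals and the floor of 3 counts cover counting error only, as no molecular identifiers were used in counting.

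The 10 genes and all gene lists were chosen with earlier results of these data known. Named genes were the 10 members, other family genes with at least 10 counts in any library, called genes of the pathway lists (up to 8 per list) and the 3 nearest genes to each member whose mean log2 CPM was 3 or more. Other genes named were chosen after their values were seen. The procedure was tested on simulated counts for these 5 libraries: of 11415 genes, 61 of 98 genes changed by 1 on the log2 scale and 87 of 98 changed by 2 were recovered, and 5 of 153 calls were false.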

Additional observations from a re-analysis of the deposited data

How the results depend on the processing

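The number of members called lower was 3 or 4 under every alternative, and none was called higher. Of 103 comparisons of member fold changes with an alternative, 95 moved by less than the replicate SD, 8 moved more (Il1rn, Il1rap and Il18rap) and 0 changed sign. With total counts alone, 1210 genes were called higher and 197 lower, and 1 pathway gene lower. When libraries were left out one at a time, 281 to 653 genes were called higher and 235 to 547 lower, with 2 to 7 pathway genes higher and 1 to 4 lower. The fewest calls over both directions, 558, came without BcorWT replicate 1, and with 1 control left that library is assumed to vary like the other group. The sign of Sigirr turned positive with total counts alone (0.04), under GC correction (0.12), without BcorΔE9-10 replicate 1 (0.20) and without BcorWT replicate 1 (0.53), and over fits without a library it ranged from -0.69 to 0.53. The cause was not tested. For the 7 called pathway genes, 13 of 104 comparisons lost the call.

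Replicate numbers are shared between the genotypes. Same-numbered libraries deviated from their group means with correlations of 0.0573 and 0.0667. The BcorWT group is a pair of libraries, whose deviations from their mean mirror each other, so these correlations are not independent. They cannot decide whether same-numbered libraries were handled together, and this was not tested. A fit with the number as a block called 1454 genes (891 higher, 563 lower), with 4 members lower and 7 pathway genes higher and 3 lower.

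The values of Il1b, Il18, Il1r1 and Il1rl1 rest on 0 to 23 counts per library, in 3 and 2 libraries.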
